A study of Talpa occidentalis with 2 samples.

Results

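The DLX genes are the vertebrate relatives of the fly gene Distal-less and encode homeodomain transcription factors. They are known for their work in the developing forebrain, limbs, jaws, skin and teeth. DLX1, DLX2, DLX5 and DLX6 act in forebrain precursors of GABA-producing neurons, DLX5 and DLX6 in the limb ectoderm, and DLX3 in skin, teeth and placenta. In human and mouse the family forms pairs whose members are transcribed towards each other, each pair lying on a chromosome that also carries a HOX cluster. Each pair holds 1 gene of the DLX1, DLX4 and DLX6 group and 1 of the DLX2, DLX3 and DLX5 group. Enhancers between and beside the members are shared within a pair.

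The members studied here were the 6 symbols DLX1 to DLX6, matched to the gene, mRNA and coding records of an annotation of the Iberian mole, Talpa occidentalis, build talOcc3. A match required the record name without its copy or low-confidence suffix to equal the symbol. The rule found 5 gene models among 23336, 1 each for DLX1, DLX3, DLX4, DLX5 and DLX6. It found 0 for DLX2. The study made 2 chromosome conformation (4C) libraries, 1 from forebrain and 1 from hindlimb of wild-type embryos of embryonic day 15, both with the FGF9 transcription start as viewpoint. Per-library contact values were not analysed here and sequencing depth is unknown, so no tissue was compared. FGF9 lay on scaffold 38, where there were 0 DLX models. Each value below belongs to 1 annotated genome, has no replicate and carries no test.

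The 5 models lay on 3 scaffolds, as 2 complete pairs and a single gene. DLX3 spanned 4696320 to 4699776 on the plus strand of scaffold 28, and DLX4 spanned 4709421 to 4719835 on its minus strand. DLX6 lay at 51290874 to 51296770 on the plus strand of scaffold 16, and DLX5 at 51305221 to 51310982 on its minus strand. In both pairs the members were direct neighbours and their 3′ ends faced each other. The edges of the DLX models are their outermost coding bases, so their 5′ and 3′ ends here are those of the coding stretch, not of the transcript. Of all models, 412 reached past their coding bases. DLX1 lay alone, at 47700131 to 47701418 on the plus strand of scaffold 1.

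The tail-to-tail layout of both DLX pairs, 2 of 2, stood beside a background of 23.8% of all 21262 neighbouring models (5058, Wilson 95% interval 23.2 to 24.4%, which covers counting error only). Among 914 neighbours whose symbols share a stem, as those of DLX5 and DLX6 do, 13.3% were tail to tail (122, Wilson interval 11.3 to 15.7%), and 72.2% lay on the same strand. The DLX pairs were thus 2 of 122 such family neighbours. With 2 pairs, no share can be compared with the background.

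**Figure D1:**
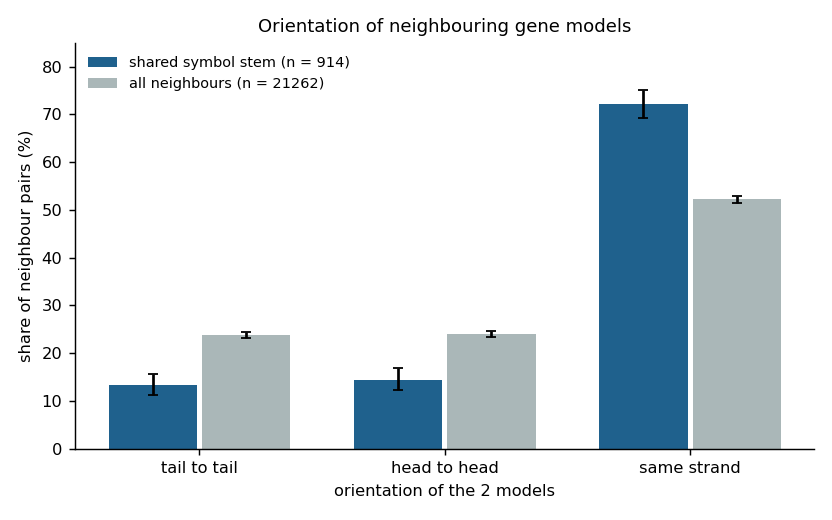
Share of neighbouring gene models (vertical axis, %) in each orientation (horizontal axis), for neighbours with a shared symbol stem (n = 914) and for all neighbours (n = 21262); error bars are Wilson 95% intervals. The DLX3 and DLX4 pair and the DLX6 and DLX5 pair belong to the tail-to-tail bars of 13.3% and 23.8%.

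As modelled, the pairs were close to each other in size. Between the 3′ ends of DLX3 and DLX4 lay 9644 bases, from 4699777 to 4709420. Between those of DLX6 and DLX5 lay 8450 bases, from 51296771 to 51305220. The longer gap was 1.14 times the shorter. Both gaps lie between model edges. At the inner edge of DLX4, exons 4 and 5 held 0 bases matched to a DLX transcript, and the last DLX6 exon held 7 of 232. The innermost DLX4 exon with matched bases began at 4715401. At the outer edges, exon 1 of DLX4 and of DLX5 held 0. The likeness in size and the shares below thus rest in part on coding bases without a match. From 5′ end to 5′ end, the DLX3 and DLX4 pair measured 23.52 kb and the DLX6 and DLX5 pair 20.11 kb, so the stretch between the genes made up 41% and 42% of the pair. Neither gap was unusual for the orientation. Of 4725 tail-to-tail gaps without overlap, 47.5% were as short as or shorter than that of DLX3 and DLX4 and 43.9% as short as or shorter than that of DLX6 and DLX5, with a median of 10.8 kb.

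By likeness of layout, 52 tail-to-tail neighbours outside the DLX family shared a symbol stem, did not overlap and had at least 3 coding exons in each model, a minimum that DLX6 and DLX5 met and DLX3, with 2, did not. Of these, 25 had a gap no longer than that of DLX3 and DLX4. The likeness was the closeness of the gap, on a log scale, to the middle of both DLX gaps, 9.03 kb. The nearest was CMTM4 and CMTM3 at 9.02 kb, followed by IGFBP2 and IGFBP5 at 9.65 kb, PATE1 and PATE2 at 9.92 kb, the T cell receptor subunit genes CD3E and CD3D at 8.14 kb, and ENPP5 and ENPP4 at 10 kb. ADAM18 and ADAM2, GSTM1 and GSTM3, ABCC6 and ABCC1, TSPAN11 and TSPAN9, and CMTM7 and CMTM6 completed the nearest 10, with gaps from 7.7 to 10.7 kb. These 10 were chosen for the size of their gaps, so the likeness in size is not a result.

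DLX2 is, in human and mouse, the partner of DLX1, and is expressed with it in the forebrain. In the deposited table, the next model beyond the 3′ end of DLX1 was RPS24_copy8, a single-exon model of 388 coding bases named after a ribosomal protein gene, across a gap of 186 kb from 47701419 to 47886944. Beyond it came ITGA6, 293 kb from DLX1. RefSeq's genes for MPIMG_talOcc4v2.1, a later assembly of the mole, included 6 of 6 members. There DLX2 followed DLX1 with 0 features between them, and 1 pseudogene without a symbol lay between DLX2 and ITGA6. All 3 pairs were direct neighbours in that table, which gives no strand. The later order thus puts DLX2 in the interval between DLX1 and ITGA6, which held only RPS24_copy8 in the deposited table.

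The stretches beside the DLX models differed widely in length. DLX6 had the longest, 627 kb from 50663730 to 51290873, up to SLC25A13, which encodes a mitochondrial aspartate and glutamate carrier. That length was reached by only 351 of the 20408 gaps between models (1.72%). On the other side of that pair, 56.5 kb separated DLX5 from SDHAF3, a succinate dehydrogenase assembly factor (24% as long or longer). DLX4 was separated from TAC4, a tachykinin peptide gene, by 105 kb (14.5%), and DLX3 from the integrin gene ITGA3 by 46.1 kb (27.7%). DLX1 had the shortest 5′ flank. Only 5.18 kb parted it from METAP1D, a mitochondrial methionine aminopeptidase gene on the same strand, and 75% of gaps reached that length. The median gap was 16.3 kb. The 3′ gap of DLX1, 186 kb, was equalled or exceeded by 8.55%, and measured 293 kb when single-exon models were left out. RefSeq places DLX2 on this side, but the order alone does not say where in the interval it lies. How much of this gap lies inside the pair and how much outside is thus unknown.

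**Figure D2:**
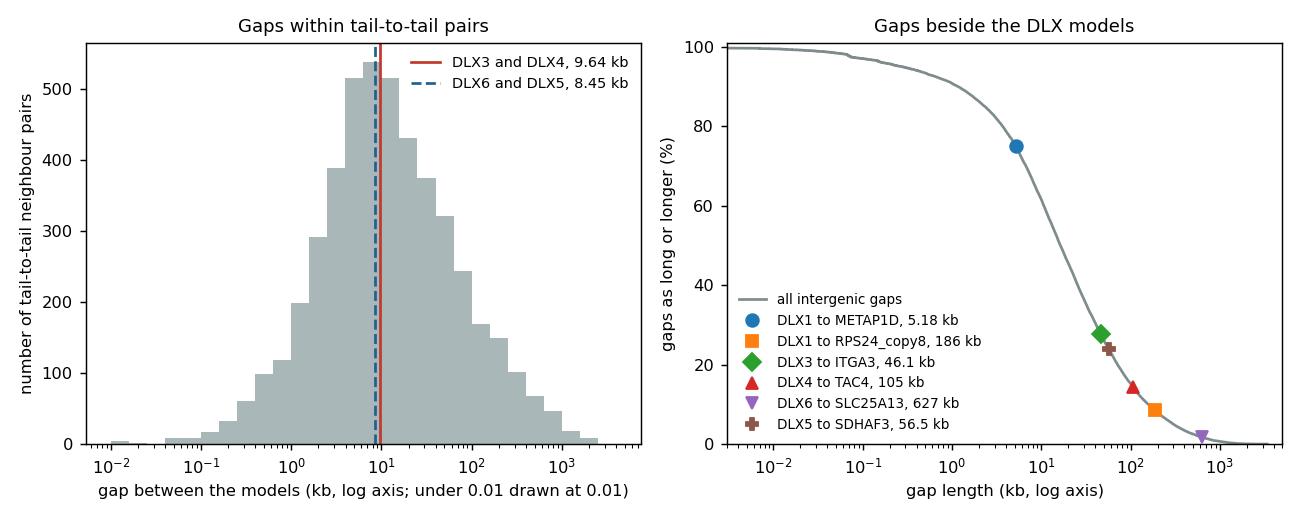
Left, numbers of tail-to-tail neighbour pairs by the gap between their models (kb, log axis), with lines at 9.64 kb for DLX3 and DLX4 and 8.45 kb for DLX6 and DLX5, both near the middle of the distribution. Right, share of intergenic gaps as long or longer (%) against gap length (kb, log axis), with a symbol for each gap beside the DLX pairs and on either side of DLX1; the gap from DLX6 to SLC25A13 lies lowest, at 1.72%.

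The 627 kb beside DLX6 corresponded to an interval with genes in RefSeq. There, 3 features lay between SLC25A13 and DLX6. They were SEM1, which encodes a small proteasome subunit, and 2 unnamed lncRNA genes. In the deposited table the symbol SEM1 was carried by 2 single-exon models of 210 coding bases each, on scaffolds 24 and 37, and by 0 on scaffold 16. DYNC1I1, a dynein chain gene, followed SLC25A13 and ended 792 kb from DLX6. In human and mouse, some exons of DYNC1I1 double as limb enhancers of DLX5 and DLX6. Here it lay on the plus strand at 50216253 to 50499190 with 16 coding exons.

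Gene density set the loci apart. Within 1 Mb of the 5′ end of DLX5 there were 7 other gene starts, 2 on the DLX6 side and 5 on the SDHAF3 side. DLX6 had 7 as well, 1 on the SLC25A13 side and 6 on the other. Around DLX3 and around DLX4 there were 57 each, and around DLX1 there were 22, against 25 for the median model. The count of DLX5 and DLX6 was not exceeded by 16% of models, that of DLX1 by 46.7% and that of DLX3 and DLX4 by 82.2%. These shares and the median were taken over all 23336 models. They include models near scaffold ends and on short scaffolds, where part of the 1 Mb window is missing. The pairs of like modelled size thus lay in a sparse and in a dense neighbourhood.

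**Figure D3:**
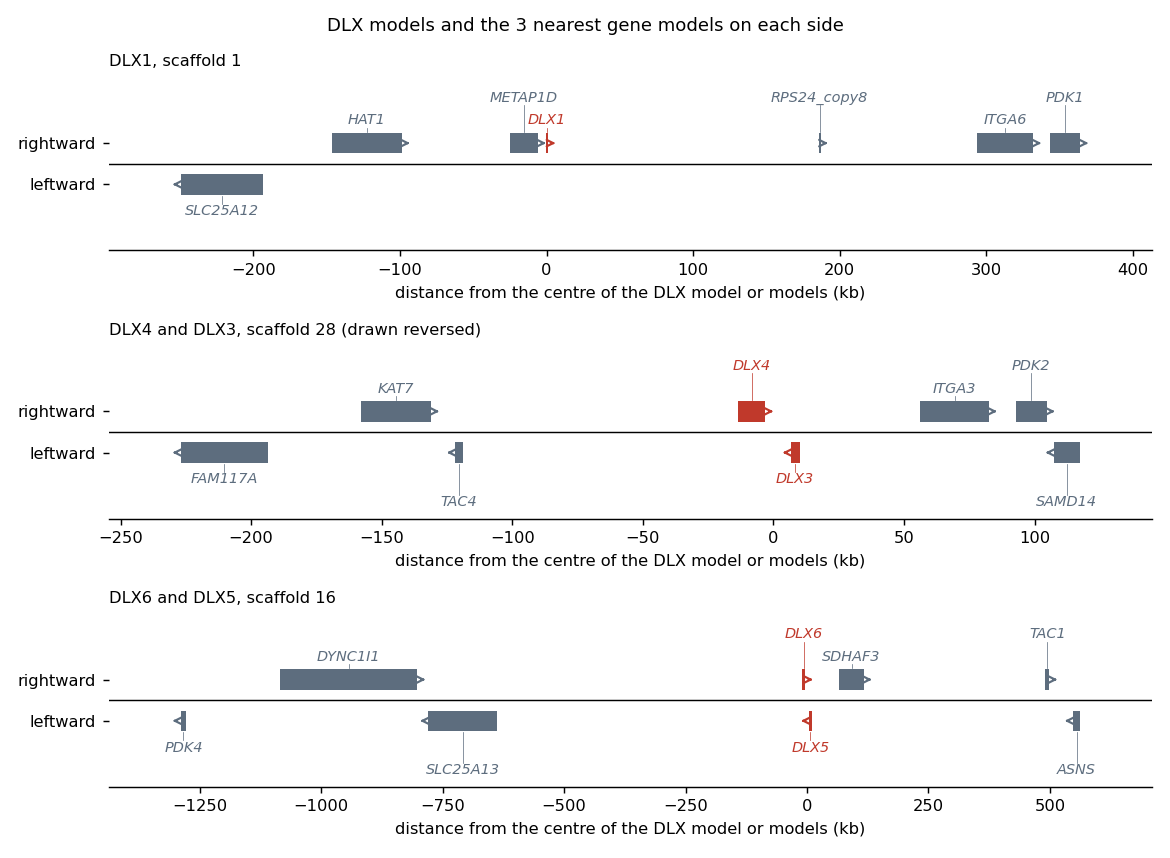
Maps of the DLX models (red) and the 3 nearest gene models on each side (grey), in kb from the centre of the DLX model or models, to scale within each panel; boxes above the line are transcribed rightward, those below leftward, as the arrows show. The DLX4 and DLX3 map is reversed, so that the genes of 1 group, DLX1, DLX4 and DLX6, face right in all 3 panels.

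The neighbours included members of the same families at different DLX loci. Carrier genes of the aspartate and glutamate type lay on the 5′ side of DLX1 (SLC25A12, 193 kb away) and of DLX6 (SLC25A13, 627 kb away), each followed outward by a dynein intermediate chain gene, DYNC1I2 at 270 kb and DYNC1I1 at 792 kb. At both loci the carrier gene pointed away from DLX and the dynein gene towards it. Genes of laminin-binding integrins lay on the side of DLX1 where RefSeq lists DLX2 (ITGA6, 293 kb from DLX1) and on the side of DLX3 (ITGA3, 46.1 kb away). Each was followed by a pyruvate dehydrogenase kinase gene, PDK1 at 343 kb and PDK2 at 82.7 kb, and these 4 genes were transcribed away from DLX. Another kinase gene of this type, PDK4, lay beyond DYNC1I1, 1267 kb from DLX6. The tachykinin genes broke this likeness: TAC1 lay 481 kb away on the DLX5 side, beyond SDHAF3, and TAC4 on the DLX4 side. Of 14 listed genes of these neighbour families, 13 had a model and all 13 had one on a DLX scaffold, which the choice of the list from known human neighbours favours. SP8, a zinc finger gene of limb and forebrain, had 0 models. Its relative SP9 had 2 models, with 2 coding exons and 1 coding exon, 1716 and 1718 kb from DLX1. They were direct neighbours on the plus strand, at 49417789 to 49418974 and 49419359 to 49419864. Whether they belong to 1 gene was not tested. SP6 lay 1592 kb from DLX4. A second model named SLC25A12, with 2 coding exons, lay on scaffold 30. Among the other nearest models were 2 histone acetyltransferase genes, HAT1 at 98 kb from DLX1 and KAT7 at 118 kb from DLX4, as well as SAMD14 at 97.2 kb from DLX3 and FAM117A at 180 kb from DLX4.

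HOX genes shared a scaffold with DLX1 and with the DLX3 and DLX4 pair. EVX2 lay 2990 kb and HOXD13 3006 kb from DLX1, on the ITGA6 side, with 28 models between DLX1 and HOXD13, and HOXD1 followed at 3104 kb. HOXB13 lay 880 kb from DLX4 on the TAC4 side, with 20 models between them. HOXA13 and EVX1 lay on scaffold 17, apart from the DLX5 and DLX6 pair on scaffold 16. In RefSeq, DLX6 and HOXA13 were read as 1 sequence. Sequence ends there are inferred from a fall in position and can be missed. HOXB1 had 0 models in the deposited table.

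The order of genes around each pair was set against a human order written from general knowledge. Around DLX1, 22 of 22 successive listed pairs were kept, from DYNC1I2 to HOXD13 over 3.33 Mb of scaffold 1, with DLX2 left out for lack of a model. Around DLX3 and DLX4, 33 of 33 were kept, from HOXB13 to ACSF2 and CHAD, whose models overlap, over 1.28 Mb, with GNGT2 left out. A pair was kept when both genes lay on 1 scaffold, with starts within 2 Mb and 0 other listed genes between their centres. Around DLX5 and DLX6, 14 of 17 were kept and 3 were broken, with BRI3 left out. The 14 include the pairs from LMTK2 to NPTX2, which lay on scaffold 5, away from the DLX pair. Of the 18 listed genes with a model, 12 lay on scaffold 16. Both pairs that involve SEM1, with SLC25A13 and with DLX6, were broken because its models lay on other scaffolds, and RefSeq kept both. The remaining break parted ASNS, the asparagine synthetase gene and the outermost listed gene on scaffold 16, from LMTK2, a kinase gene on scaffold 5 at 42422307 to 42478444. ASNS, 537 kb from DLX5, was followed on scaffold 16 by C1GALT1, a glycosyltransferase gene, 700 kb from DLX5, and by the collagen gene COL28A1, 828 kb away. RefSeq, too, placed ASNS and LMTK2 on different sequences, with 1 pseudogene between ASNS and C1GALT1. C1GALT1 and COL28A1 are named because their positions were seen. The block that was kept thus reached from PON1 to ASNS over 2.08 Mb, SEM1 apart.

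Exon structure differed among the 5 models, not all of whose exons were matched to a DLX transcript, as given below. In the group of DLX1, DLX4 and DLX6, DLX1 had 2 coding exons of 313 and 311 bases, 624 in all, parted by an intron of 664 bases. DLX6 had 3 coding exons of 342, 248 and 232 bases, 822 in all, with introns of 1896 and 3179 bases. DLX4 had 5 coding exons of 256, 227, 239, 182 and 140 bases, 1044 in all, and was the longest model at 10.4 kb, with introns of 3323, 390, 3701 and 1957 bases. In the other group, DLX3 had 2 coding exons of 414 and 465 bases, 879 in all, with an intron of 2578 bases. DLX5 had 3 coding exons of 102, 664 and 509 bases, 1275 in all, with introns of 2656 and 1831 bases. All 5 coding lengths were whole numbers of codons, from 208 in DLX1 to 425 in DLX5, as were 87.8% of all models. No coding exon length was shared between members. Models of 2, 3 and 5 coding exons made up 8.7%, 6.92% and 6.2% of the annotation, whose median was 5.

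Each model is deposited with the range of its coding bases that matched a DLX transcript named in the record, and in 4 of 5 members the model reached beyond that range, as did 73.7% of all 20426 models with a forward match of like length. The median such model was matched over 96.7% of its coding bases. A share as small as that of DLX1 or smaller was found in 26.8% of models, and for DLX6, DLX5 and DLX4 the figures were 9.1%, 7.2% and 4.84%. Matched bases are given here from the 5′ end. The deposited positions run in genomic order. This was read from 2485 minus-strand models with at least 3 coding exons whose match starts beyond the first few bases. In 35.2% of them the start fell within 1 base of an exon boundary when counted from the 3′ end. Counted from the 5′ end, it did so in 1.57%. The ranges of DLX4 and DLX5 were therefore turned round. For DLX1, the deposited match covered coding bases 1 to 515, 82.5% of the model, with 202 of the 311 bases of the last exon. For DLX6 it ran from base 146 to 597, 55% of the model, and took in all 248 bases of the middle exon but 7 of the last. For DLX5 it ran from 319 to 956, 50% of the model. It left out the first exon and took in 448 of the 664 bases of the second and 190 of the 509 of the last. For DLX4 it ran from 279 to 722, 42.5% of the model, with 205 of the 227 bases of the second exon and all 239 of the third. The match ended with the last base of that exon, so exons 1, 4 and 5 of DLX4 held 0 matched bases. DLX3 was matched over 100% of its 879 bases. The matched stretch was as long in the model as in the target for DLX1 (515 bases), DLX6 (452) and DLX4 (444), while it was 638 bases in the DLX5 model against 641 in its target, and 879 in the DLX3 model against 861.

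**Figure D4:**
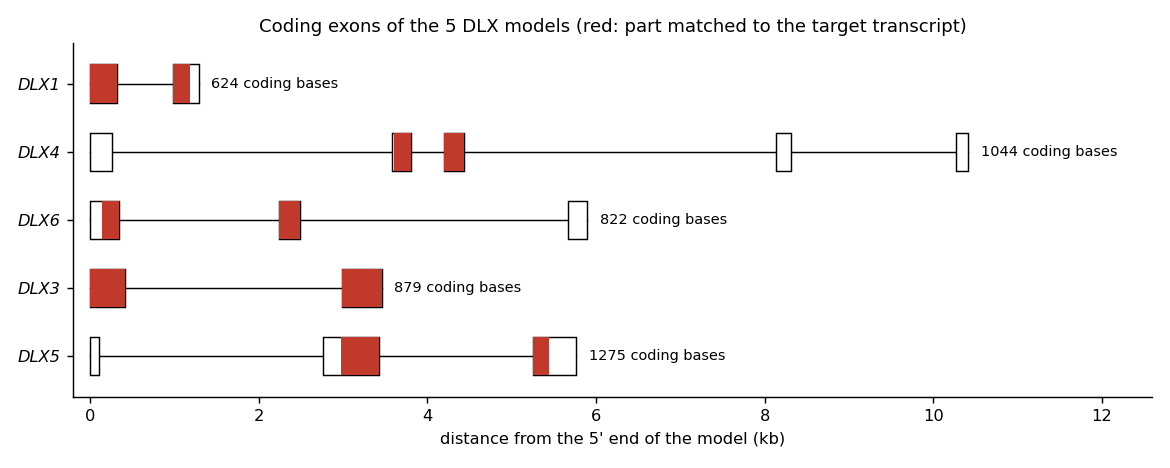
Coding exons (boxes) and introns (lines) of the 5 DLX models, drawn to scale in kb from the 5′ end, with the part matched to the target transcript in red. Exons 1, 4 and 5 of DLX4 and exon 1 of DLX5 hold no matched base, and DLX3 is matched throughout.

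DLX3 also stood apart in origin and score. It came from exonerate, an aligner, and its record name carries the prefix of an elephant protein of Ensembl. The other 4 came from EVM, which combines several lines of evidence and made 64.2% of all models, against 25.5% from exonerate. The deposited score per matched target base was 0.639 for DLX3, against a median of 1.09 among 3477 exonerate models. Among all 20426 models with a forward match of like length, from every source, 8.96% were as low or lower. The score per base was 1.67 for DLX1, 1.58 for DLX6, 1.46 for DLX5 and 1.43 for DLX4, against a median of 1.22 over the 20426 models. The shares of models at or under these values were 98.9% for DLX1, 94.9% for DLX6, 82.2% for DLX5 and 77.3% for DLX4. No source used here says how the score was calculated, so it is a rank within this table and not a measure of identity.

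Further genes that act with DLX factors were read from a list of 26 regulators and targets. Of these, 25 had a model, and SP8 did not. The list holds GSX1 and GSX2, upstream regulators in the forebrain, LHX6, GAD1 and GAD2 among forebrain targets, TP63 in the limb ectoderm, EDN1 and EDNRA in jaw signalling, and RUNX2 and SP7 in bone. GAD1, which encodes an enzyme of GABA synthesis, lay on the DLX1 scaffold, 882 kb away on the METAP1D side. MEIS2 shared scaffold 16 with DLX5 and DLX6 at 20.6 Mb, and EDNRA shared scaffold 1 with DLX1 at 45.7 Mb. SP9, RUNX2 and SP7 had 2 models each. The 2 RUNX2 models had 7 and 2 coding exons on scaffold 20. Those of SP7 had 2 and 1 on opposite strands of scaffold 34, where the smaller lay inside the larger. DLX1, DLX3, DLX4, DLX5 and DLX6 each had 1 model only.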

How the data were processed

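The deposited file is a gene annotation of build talOcc3 with no column per library. Positions are in GFF format, which counts from 1, and the deposited source of each model is EVM, exonerate or ALN. How the authors made, filtered or named models is not given. The deposited score stands on the mRNA record beside a target range and a query range, and was read as the score of that match. BWA is named in the submitters' processing notes. Query ranges of minus-strand models were turned to count from the 5′ end, since they run in genomic order. This was found after a first reading that counted them from the 5′ end. Scores per target base were ranked among the 20426 forward matches, of 21473, whose query and target lengths differ by at most 2 times, because longer queries may be matched to protein letters.

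Models were read from mRNA records with the extent of their gene record. Neighbours were successive models by start on a scaffold, and gaps lay between merged models. A symbol stem is the symbol without its last digits and any letters after them. The RefSeq gene table (31603 genes) gave names and order, and its positions are not printed. Genes were named by rule: the members, the 3 nearest models on each side, genes beside order breaks and outermost kept genes, list members near DLX, without a model or with several, and 10 similar pairs. Other genes of the lists are named as examples, and some listed genes are not reported here. Members and lists were chosen with earlier results of these data known. On simulated data, 200 of 200 planted pairs and 10 of 10 planted order breaks were recovered, with 0 calls elsewhere. Only planted models shared a stem there, and every planted break was a jump to another sequence. The simulation thus checks the code and not the annotation. Python 3.11.15 was used. No sequence was used here.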

Additional observations from a re-analysis of the deposited data

How the results depend on the processing

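The DLX pairs and their orientation (2) did not change with models that carry a symbol or models with at least 2 coding exons, and RefSeq order gave 3 pairs without strand. A share was taken as moved when it left the Wilson 95% interval of the reported share, which is narrow over so many models, a count when it changed by over 1.5 times, and a length when it changed at all. By these limits 28 of 52 alternatives moved a value and 24 did not. Among the latter were the RefSeq orders, which changed counts by at most 1.5 times. The change from 2 to 3 DLX pairs lay at that limit. No test was made. Measured from 5′ end to 5′ end, the pairs span 23.52 kb (DLX3 and DLX4) and 20.11 kb (DLX6 and DLX5) by construction. Measured between outermost coding bases, the gaps were equal to those between gene edges, also by construction, since the edges of these models are their outermost coding bases. The share of neighbours that are tail to tail was 24.5% with symbols only, 24.6% with at least 2 coding exons, 24.4% on scaffolds of at least 1 Mb and 22.9% without overlaps. With at least 2 coding exons, 49.7% of tail-to-tail gaps were as short as that of DLX3 and DLX4 and 46.1% as that of DLX6 and DLX5. In that setting the 3′ gap of DLX1 reaches ITGA6, at 293 kb, since the single-exon RPS24_copy8 is left out. The shares of gaps as long or longer were then 77% (DLX1, 5′ side), 6.38% (DLX1, 3′ side), 30.8% (DLX3), 16.7% (DLX4), 2.46% (DLX6) and 26.9% (DLX5). With symbols only they were 77.3% (DLX1, 5′ side), 9.14% (DLX1, 3′ side), 29.3% (DLX3), 15.5% (DLX4) and 25.4% (DLX5). The share of genes with as few neighbours was 43.6% for DLX1, 80.8% for DLX3 and DLX4 and 11.7% for DLX5 and DLX6 with symbols only, and 80.4% for DLX3 and DLX4 and 13.8% for DLX6 with a 0.5 Mb window. The cause was not tested. The numbers of kept listed pairs were the same with limits of 1 Mb and 5 Mb. In RefSeq order they were 23 of 23 around DLX1, against 22 of 22, 32 of 33 around DLX3 and DLX4, against 33 of 33, where CHAD lies between LRRC59 and ACSF2 by start, and 17 of 18 around DLX5 and DLX6, against 14 of 17. In the deposited table, CHAD also starts between ACSF2 and LRRC59, at 4324696, but its centre does not lie between theirs. By start, both orders are thus alike there. Around DLX5 and DLX6, both counts include the pairs beyond the break, from LMTK2 to NPTX2. Merging coding blocks less than 10 bases apart changed no exon number. RefSeq protein lengths were not used here, so that alternative was not run. No paired analysis was possible because no value per library was analysed and the results come from no test. Precision is limited by 1 assembly and its gene models.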

Other observations

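Many EVM models carry a running number in their record name, in more than 1 series. Of the series that holds DLX1, DLX5 and DLX6, the table holds 5.41% of the numbers between the first and the last on each scaffold. The DLX1 model has number 2150 and the next model of its series, ITGA6, has 2173, so that 22 numbers were skipped in the interval where the later build lists DLX2. Steps that skip as many or more made up 20.4% of all steps, and the median step skipped 6. A larger skip, of 25 numbers, lay between SLC25A13, number 2837, and DLX6, number 2863 (18% of steps skip as many or more). Between DLX6 and DLX5, number 2868, 4 numbers were skipped (61.6% of steps skip as many or more). What the numbers stand for is unknown.

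Neighbouring models on the same strand did not overlap in 11097 of 11097 cases, while 4725 of 5058 tail-to-tail neighbours were free of overlap.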
